A study of Danio rerio with 14 samples.

Results

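Broad H3K4me3 domains are stretches of the genome in which the H3K4me3 peaks of the wild type (WT) lay so close together, or were so long, that they spanned 3000 bp or more. They were found by merging WT H3K4me3 peaks no more than 500 bp apart on chromosomes 1 to 25, without the stretch of chromosome 16 from 36 to 37 Mb, and 373 of 47315 merged domains (0.788%) were that wide. They were set against the 15265 narrow domains of 500 to 1500 bp from the same list. The data are peak lists from chromatin immunoprecipitation followed by sequencing (ChIP-seq) for H3K4me3 and H3K27ac, with 2 replicates for MZsox19b H3K27ac and 1 library for each other pairing of genotype and mark. All libraries came from pooled whole zebrafish embryos at 4.3 hours post-fertilization (hpf), the dome stage of the wild type. MZspg embryos lacked the transcription factor Pou5f3, and MZsox19b embryos lacked Sox19b, in each case as both the maternal and the zygotic product. MZspg parents are homozygous for the spg allele m793 and are themselves raised after rescue with pou5f3 mRNA. The MZsox19b line carries a TALEN-induced frameshift allele that descends from a single founder. WT fish were of the AB/TL strain, and the labels give this background for the mutants too. Mutant embryos were staged by the age of WT embryos kept beside them, so that genotypes were matched by age.

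H3K4me3 is a trimethylation of histone H3 that sits around the start sites of active genes, where it is deposited by complexes recruited to unmethylated CpG-rich DNA and to initiating RNA polymerase II. Most promoters carry a short block of it, and in many cell types a minority carry a block that runs far into the gene, often at genes that are transcribed strongly or that define the cell type. H3K27ac, an acetylation of the same histone, marks active promoters and also active enhancers. In the early zebrafish embryo both marks build up around zygotic genome activation, when Pou5f3 and Sox19b, relatives of mammalian Oct4 and Sox2, open chromatin at enhancers.

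The lists themselves differed in length before any domain was looked at. On chromosomes 1 to 25 the H3K4me3 peaks covered 15.1 Mb in MZspg, 32.3 Mb in MZsox19b and 27.5 Mb in WT. The H3K27ac peaks covered 57.2 Mb in MZspg, 89.3 and 109.1 Mb in the MZsox19b replicates and 50.8 Mb in WT. The lists carry no read counts and the depth of the libraries was not used here, so that a peak missing from a list was not detected rather than shown to be absent. The shares below have Wilson 95% intervals and the differences between shares Newcombe 95% intervals, both for counting error only. With single libraries no p-value was computed, and both mutants were compared with the same WT lists.

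The broad domains covered 1.63 Mb in all and had a median width of 3619 bp, with a longest of 29962 bp. Of the 373 domains, 63 reached 5000 bp and 12 reached 10000 bp. The rule cut through a continuous range of widths. The 5 domains just inside it measured 3001, 3005, 3008, 3009 and 3015 bp, and the 5 just outside measured 2995, 2994, 2990, 2989 and 2986 bp.

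Width did not go with one kind of signal. The fold enrichment, the ratio of ChIP signal at a peak's summit over background that the authors' peak caller gave, split the broad domains into a tall and a low class with few in between. In 215 tall domains the highest WT H3K4me3 peak reached at least 10-fold, with a median of 66.0-fold. In the remaining 158 low domains it stayed below 10-fold, with a median of 4.13-fold. The 10-fold limit was chosen after the values had been seen, and 18 of the 373 domains lay between 8- and 12-fold. The same limit divided the narrow domains into 7507 tall and 7758 low ones, with 1658 between 8- and 12-fold.

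**Figure D1:**
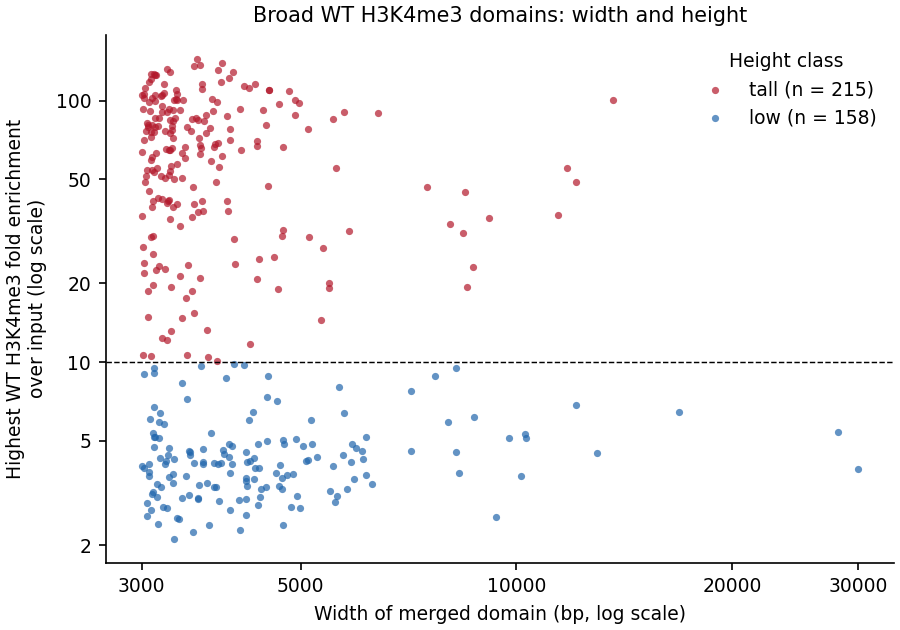
Width of each of the 373 broad domains (x axis, bp, log scale) against the highest WT H3K4me3 fold enrichment in it (y axis, log scale). Red points are the 215 tall domains and blue points the 158 low ones, with the dashed line at 10-fold. The points form 2 clouds, and 8 of the 12 domains over 10000 bp lie in the low one.

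The classes also differed in how they were built. A tall domain was usually one or a few long peaks, and 92 of 215 consisted of a single peak with no merging. A low domain was a chain of short peaks with gaps between them, with a median of 5 peaks, and 3 of 158 were a single peak. Tall domains had a median width of 3412 bp and low domains of 4145.5 bp. Peaks filled a median of 95.3% of the bases of a tall domain and 75.4% of those of a low domain in the WT H3K4me3 list, which chose the domains. The WT H3K4me3 width, height and coverage are therefore given as a description.

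The label of these regions as promoter domains could not be checked, since no annotation in the coordinates of the lists (danRer11) was used here, and they are called broad domains throughout. Gene names could be attached to 2 tall domains on chromosome 1 through a partial list of accessible regions from the study. One such region, tied to fbxw7, which encodes the substrate-binding subunit of a ubiquitin ligase, lay inside the domain at chr1:25141671-25144675. Another, tied to hmgb2a, which encodes a chromatin protein of the high mobility group, lay just outside the domain at chr1:38169766-38172851. These domains were 3005 and 3086 bp wide and had a highest WT H3K4me3 enrichment of 105- and 90.9-fold. MZspg H3K4me3 peaks covered 84.0% of the fbxw7 domain, MZsox19b peaks 100% and WT peaks 100%. The hmgb2a domain was covered to 87.0% by the MZspg, 100% by the MZsox19b and 100% by the WT list.

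Whether the broad blocks of H3K4me3 were present without each factor was read from the share of domains with at least 50% of their bases under a peak. In MZspg 178 of 373 broad domains reached this (47.7%, 42.7 to 52.8), against 54.9% of narrow domains. In MZsox19b 223 did (59.8%, 54.7 to 64.6), against 76.5% of narrow domains. Over all merged WT domains the shares were 29.9% in MZspg and 50.9% in MZsox19b. The broad share was below the narrow one by 7.23 percentage points in MZspg (difference -7.23, -12.3 to -2.10) and by more in MZsox19b (difference -16.7, -21.8 to -11.8). Both signs depended on the setting. With all domains under 3000 bp in place of the narrow ones, the differences were 17.997 points in MZspg and 8.91 points in MZsox19b, and with lists of equal covered length that of MZsox19b was 9.96 points.

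The pooled shares hid the height classes. In MZspg 160 of 215 tall domains had at least 50% of their bases covered by H3K4me3 peaks (74.4%, 68.2 to 79.8), and 18 of 158 low domains did (11.4%, 7.33 to 17.3). In MZsox19b 207 tall domains (96.3%, 92.8 to 98.1) and 16 low domains (10.1%, 6.33 to 15.8) did. The tall share thus exceeded the low one by 63.0 points (54.5 to 69.8) in MZspg and by 86.2 points (79.5 to 90.4) in MZsox19b. Peaks covered a median of 65.4% of a tall domain in MZspg and 100% in MZsox19b. Of a low domain they covered a median of 7.11% in MZspg and 13.8% in MZsox19b. Set against narrow domains of the same height class, tall broad domains reached 50% less often in MZspg (difference -11.4 points, -17.6 to -5.93), and in MZsox19b the interval of the difference included 0 (-1.43 points, -4.89 to 0.430). Low broad domains reached 50% less often than low narrow ones in MZspg (difference -13.7 points, -17.9 to -7.76) and in MZsox19b (difference -45.9 points, -49.8 to -40.1). In MZspg broad domains reached 50% less often than narrow ones in each height range but the lowest. From 2.11- to 4.09-fold, 13.3% of 75 broad and 8.82% of 3800 narrow domains did, a difference for which no interval was computed. From 4.09- to 8.82-fold, 9.46% of 74 broad and 39.0% of 3293 narrow domains did. The broad and narrow shares were 53.3 and 79.8% from 8.82- to 41.4-fold. They were 67.6 and 96.6% from 41.4- to 81.6-fold, and 94.7 and 98.4% above that. In MZsox19b the broad and narrow shares were 4 and 27.8% in the first range and 12.2 and 84.3% in the second.

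**Figure D2:**
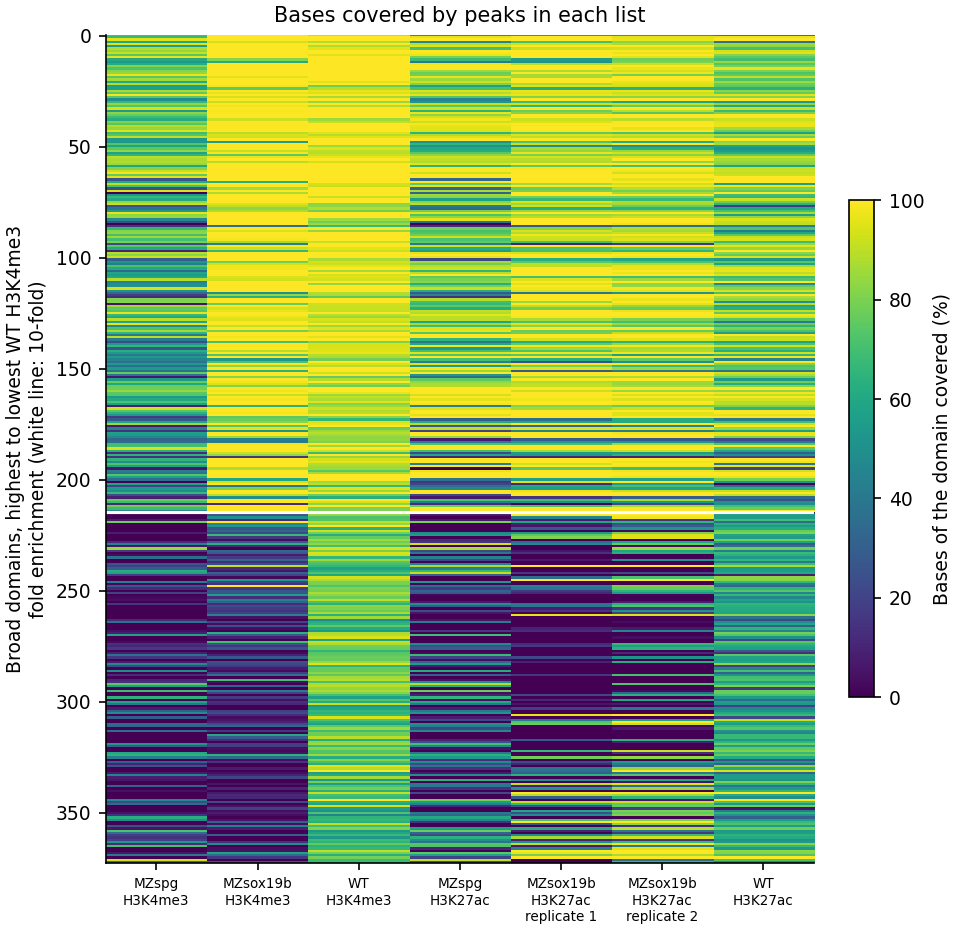
Percentage of bases covered by peaks (color scale, 0 to 100%) in each of the 373 broad domains (rows, ordered by highest WT H3K4me3 fold enrichment) and each of the 7 lists (columns). Above the white line, which marks 10-fold, the 215 tall domains are largely covered in every list and least in MZspg H3K4me3, and below it the 158 low domains are covered mostly in the WT lists.

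The H3K4me3 lists were also reduced to the same covered length, by keeping the peaks of highest fold enrichment in each. The MZspg list, the shortest, stayed whole, while the smallest enrichment kept was 6.61-fold in WT and 30.6-fold in MZsox19b. At that length 18 of 158 low domains reached 50% in MZspg, 1 in MZsox19b and 5 in WT. Low domains were defined by a WT height below 10-fold, and 18 of the 158 kept any WT base after the cut. The order of the lists in low domains is therefore largely fixed by the cut, and nothing is concluded from it. Of the 215 tall domains 160 reached 50% in MZspg, 184 in MZsox19b and 203 in WT. Each tall domain kept its highest WT peak by definition, as that peak was at least 10-fold and the WT cut lay at 6.61-fold. MZsox19b lost its peaks under 30.6-fold, and had 207 tall domains covered to 50% with the list whole. The order in tall domains is therefore partly fixed by the cut as well.

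H3K27ac, which played no part in choosing the domains, was widespread over them in WT. WT H3K27ac peaks covered at least 50% of the bases in 313 of 373 broad domains (83.9%, 79.8 to 87.3), against 50.1% of narrow domains and 54.2% of all merged domains. The difference between broad and narrow was 33.8 points (29.7 to 37.3), and it was positive under each alternative tried. It was 23.6 points when narrow domains were weighted to the heights of the broad ones, 17.2 points when at least 1 covered base was asked for, and 9.38 points with a merging gap of 1000 bp. It was seen in each class, with 89.8% of tall broad against 59.2% of tall narrow domains (difference 30.5 points, 25.6 to 34.1), and 75.9% of low broad against 41.3% of low narrow domains (difference 34.7 points, 27.3 to 40.7). The tall difference is not matched for height, as tall broad domains had the higher WT H3K4me3 peaks. From 8.82- to 41.4-fold, WT H3K27ac peaks covered 50% of 78.7% of broad and 49.8% of narrow domains. These shares were 91.9 and 80.1% from 41.4- to 81.6-fold, and 97.3 and 90.4% above that. The gap was thus smaller in the higher ranges, where no interval was computed. A single broad domain, a tall one, had no base under a WT H3K27ac peak.

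In the mutants the H3K27ac shares of the broad domains were lower than in WT. MZspg H3K27ac peaks covered at least 50% of 213 of 373 broad domains (57.1%, 52.0 to 62.0), against 54.5% of narrow and 44.6% of all merged domains. In MZsox19b the numbers were 231 in replicate 1 (61.9%) and 275 in replicate 2 (73.7%), a mean of 67.8% ± 8.34 (SD, n = 2). The narrow shares there were 68.1% and 69.7%, and those of all merged domains 53.8% and 58.7%. The broad minus narrow difference was 2.57 points in MZspg (-2.56 to 7.56), -6.14 points in MZsox19b replicate 1 (-11.2 to -1.30) and 3.99 points in replicate 2 (-0.756 to 8.26), so that the replicates differed in sign over both height classes together. Within a class they had the same sign. Tall broad minus tall narrow was 6.85 points in replicate 1 (2.66 to 9.56) and 10.9 points in replicate 2 (7.10 to 13.1), and low broad minus low narrow was -31.1 points in replicate 1 (-36.6 to -24.2) and -11.2 points in replicate 2 (-18.8 to -3.31). In MZspg the tall difference was 7.69 points (1.95 to 12.3) and the low one -12.3 points (-18.2 to -5.07). Tall broad domains had higher WT H3K4me3 peaks than tall narrow ones, so that the tall differences are not matched for height. In each height range from 8.82-fold up, the MZspg and replicate 1 shares were lower in broad than in narrow domains. Replicate 2 was higher in broad domains from 8.82- to 81.6-fold and lower above that. With narrow domains weighted to broad heights, the difference over both classes was -7.28 points in MZspg and -8.26 points for the MZsox19b mean. The order of the MZsox19b mean and WT was 56.7 against 55.6% with a merging gap of 1000 bp and 78.9 against 78.0% with domains of 2000 bp or more.

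Again the height classes parted. Among tall domains the share covered to 50% by H3K27ac peaks was 82.3% in MZspg (76.7 to 86.8), 94.4% ± 1.32 in MZsox19b (SD, n = 2) and 89.8% in WT (85.0 to 93.1). Among low domains it was 22.8% in MZspg (16.9 to 29.9), 31.6% ± 17.9 in MZsox19b (SD, n = 2) and 75.9% in WT (68.7 to 81.9). The MZsox19b replicates gave 19.0% and 44.3% for the low domains, a wide spread in which both stayed below WT. At equal covered length of the H3K27ac lists, tall domains stood at 80.5% in MZspg, 87.9% in each MZsox19b replicate and 89.8% in WT. Low domains stood at 7.59% in MZspg, 10.1 and 16.5% in the MZsox19b replicates and 75.9% in WT. WT stayed whole, while the smallest enrichment kept was 2.38-fold in MZspg and 3.61- and 3.88-fold in the replicates. The order in low domains is therefore partly fixed by the cut. Among the whole H3K27ac lists, WT had the fewest covered bases and the highest share of low domains covered. The part of library preparation, depth or batch in this was not tested.

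**Figure D3:**
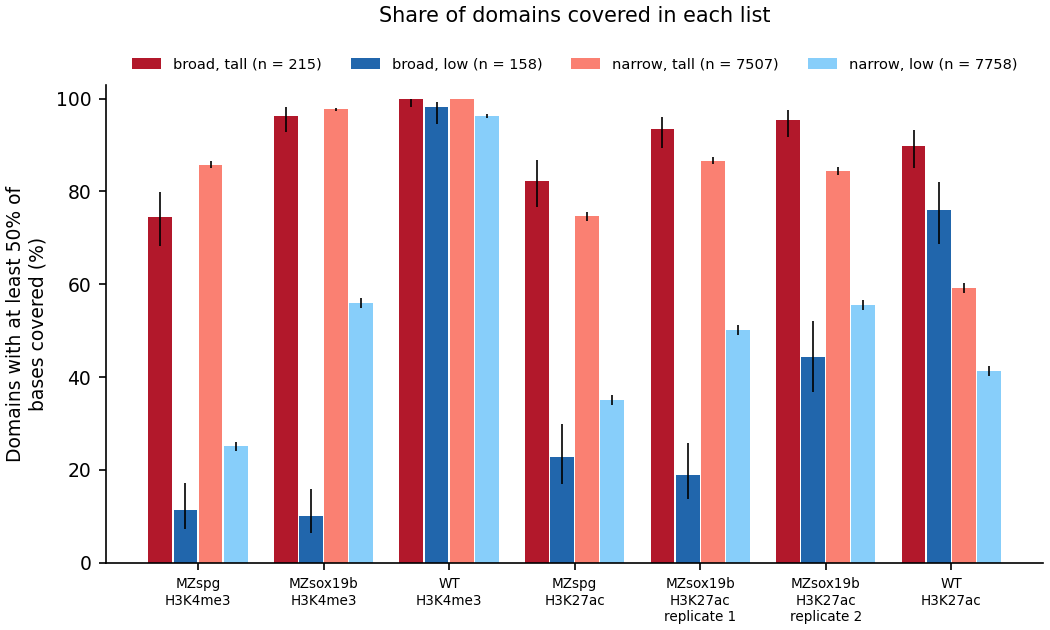
Share of domains with at least 50% of bases covered (y axis, %) in each list (x axis), for tall broad (dark red), low broad (dark blue), tall narrow (light red) and low narrow (light blue) domains. Error bars are Wilson 95% intervals, and the low broad domains stand at 10.1 to 44.3% in the 5 mutant lists and at 75.9% in WT H3K27ac.

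Peak heights parted the classes in every list, which the definition of the classes fixes for WT H3K4me3. In tall domains the median highest H3K4me3 enrichment was 31.6-fold in MZspg, 113-fold in MZsox19b and 66.0-fold in WT, and the median highest H3K27ac enrichment was 18.5-fold in MZspg, 23.5- and 18.8-fold in the MZsox19b replicates and 14.3-fold in WT. In low domains that held a peak, the H3K4me3 medians were 2.44-fold in MZspg, 2.304-fold in MZsox19b and 4.13-fold in WT. The H3K27ac medians of low domains were 2.64-fold in MZspg, 3.09- and 3.49-fold in the MZsox19b replicates and 3.17-fold in WT. Fold enrichment depends on depth and on the immunoprecipitation, so that its level was not compared between libraries.

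A domain was called reduced when a mutant's peaks covered at most 50% of the bases that WT peaks of the same mark covered in it. For H3K4me3 this held for 170 of 373 broad domains in MZspg (45.6%), where the background over all merged domains was 69.4%. It held for 138 in MZsox19b, with a background of 48.4%. In MZspg 46 of the reduced domains were tall and 124 low, and in MZsox19b 3 were tall and 135 low. The MZspg counts were 21.4% of tall broad beside 13.7% of tall narrow domains, and 78.5% of low broad beside 72.3% of low narrow ones. Those of MZsox19b were 1.40% of tall broad beside 2.10% of tall narrow domains, and 85.4% of low broad beside 41.1% of low narrow ones. The narrow domains had 43.4% reduced in MZspg and 21.9% in MZsox19b. At equal covered length 50 of the 233 broad domains with a WT base left were reduced in MZspg and 38 in MZsox19b. In MZspg 37 of 215 tall broad domains were among them, beside 997 of 7507 tall narrow ones, and 13 of 18 low broad, beside 749 of 1742 low narrow ones. In MZsox19b 21 of 215 tall broad domains were, beside 1715 of 7507 tall narrow ones, and 17 of 18 low broad, beside 1517 of 1742 low narrow ones. As the WT H3K4me3 list chose the domains, and a domain wide in WT is favoured to be shorter elsewhere, these counts are descriptions.

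For H3K27ac, domains with at least 500 WT bases were counted. This kept 369 of 373 broad, 6308 of 15265 narrow and 9833 of 47315 merged domains, so that the sets compared are unlike. As the filter selects on the WT list, fewer bases in a mutant are favoured by it, and these counts are descriptions. Of the 369 broad domains, 110 were reduced in MZspg (29.8%, 25.4 to 34.7), with a background of 18.9% and 20.0% of the narrow domains. In MZsox19b 78 were reduced in both replicates (21.1%, 17.3 to 25.6), with a background of 7.71% and 7.15% of the narrow domains. Low domains made up most of these, with 86 of 155 in MZspg and 75 of 155 in MZsox19b. Of 214 tall domains, 24 were reduced in MZspg and 3 in MZsox19b. Among low broad domains the reduced share was 55.5% in MZspg (47.6 to 63.1), beside 45.2% of low narrow ones. In MZsox19b it was 48.4% (40.7 to 56.2), beside 18.1%. The share of reduced tall broad domains was 11.2% in MZspg (7.65 to 16.1) beside 6.63% of tall narrow ones, and 1.40% in MZsox19b (0.478 to 4.04) beside 1.36%. Without chromosome 4 the counts over both classes were 72 of 313 in MZspg and 51 of 313 in MZsox19b.

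The opposite change was rare. With at least 500 mutant bases required, H3K27ac covered at least 200% of the WT bases in 7 of 299 broad domains in MZspg (2.34%), against a background of 14.5%. It did so in both MZsox19b replicates in 5 of 276 (1.81%), against a background of 16.3%. None of the 66 low domains tested was among them (0 to 5.50%). A domain with much of its length covered in WT has little room for such a gain.

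Coverage in every list was a feature of tall domains. At least 50% of the bases were covered in all 6 lists other than WT H3K4me3 in 147 of 215 tall domains (68.4%, 61.9 to 74.2), against 47.5% of tall narrow domains. Of 158 low domains none met this (0 to 2.37%), against 6.66% of low narrow domains. Conversely, 16 low domains (10.1%, 6.33 to 15.8) had under 10% of their bases covered in each of the 5 mutant lists. That was near the 9.67% of low narrow domains and below the 16.7% of all merged domains. Of these 16 domains, 6 had no covered base at all in the mutant lists, as had 722 of 7758 low narrow domains. No tall broad domain had under 10% covered in all 5 mutant lists (0 to 1.76%), and 0.346% of tall narrow domains had.

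The marks were also unevenly placed along the tall domains. In MZspg the H3K4me3 peaks kept to the middle. They covered 7.91% of the tall edges themselves, 40.5% of the points 250 bp inside and 71.9% of those 1000 bp inside. In MZsox19b they ran across the edge, and covered 46.3% of the points 250 bp outside, 79.5% of the edges and 93.7% of the points 1000 bp inside. The same order was seen at tall narrow domains, so that it was not particular to broad ones. There MZspg peaks covered 18.8% of the edges and 83.7% of the points 250 bp inside. MZsox19b peaks covered 23.9% of the points 250 bp outside and 83.8% of the edges. WT peaks cover every edge and none of the points 250 bp outside because the merging fixes the edges. H3K27ac continued past the tall edges in all genotypes, and at 1000 bp outside it covered 34.0% of points in MZspg, 50.7 and 53.7% in the MZsox19b replicates and 31.9% in WT.

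**Figure D4:**
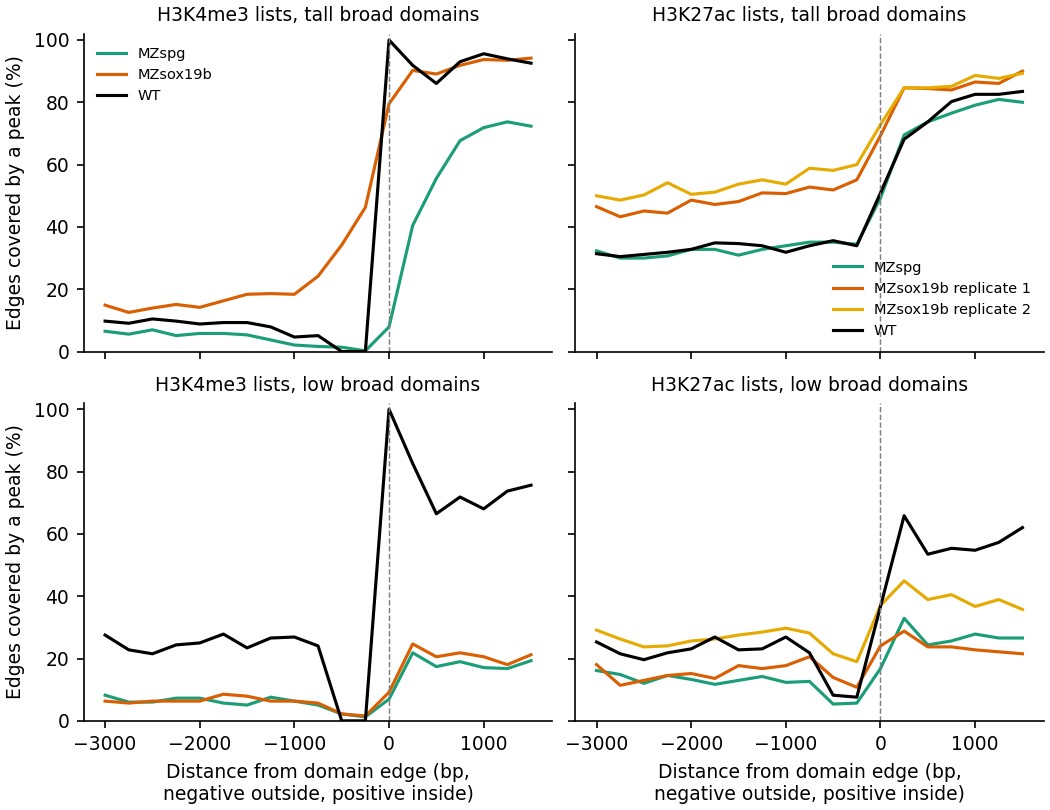
Percentage of domain edges covered by a peak (y axis) at each distance from the edge (x axis, bp, negative outside and positive inside), for H3K4me3 lists (left) and H3K27ac lists (right) in tall (top) and low (bottom) broad domains, both edges of each domain counted. In tall domains the MZspg H3K4me3 line climbs to 71.9% only 1000 bp inside, whereas the MZsox19b line already stands at 46.3% 250 bp outside.

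Inside the low domains the profiles were flat and low in the mutants. At 1000 bp inside the edge, H3K4me3 peaks covered 17.1% of points in MZspg, 20.6% in MZsox19b and 68.0% in WT. H3K27ac peaks covered 27.8% in MZspg, 22.8 and 36.7% in the MZsox19b replicates and 54.7% in WT.

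At the highest WT summit most tall domains were marked in every genotype. In the 500 bp centred on it, at least 50% of bases were covered by H3K4me3 peaks in 206 of 215 tall domains in MZspg (95.8%, 92.2 to 97.8) and in 214 in MZsox19b (99.5%, 97.4 to 99.9). For H3K27ac the same window was covered in 206 tall domains in MZspg, in 210 and 211 in the MZsox19b replicates and in 211 in WT. In low domains it was covered by H3K4me3 peaks in 49 of 158 in MZspg (31.0%) and in 59 in MZsox19b (37.3%). The lower coverage of tall broad domains in MZspg thus lay away from the summit. Among tall narrow domains the H3K4me3 shares for this window were 91.4% in MZspg and 98.5% in MZsox19b. Among low narrow domains they were 31.0% in MZspg and 58.3% in MZsox19b. H3K4me3 at the summit of tall domains was thus not particular to broad ones.

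The width of the domain that each mutant formed at the same place was measured by merging the mutant's own H3K4me3 peaks in the same way. All 215 tall domains met a merged domain in MZsox19b, and 212 did in MZspg. In MZspg the longest one was narrower than in WT at 207 tall domains and wider at 5, with a median difference of -1308 bp, and 58 of 215 (26.98%, 21.5 to 33.3) were still 3000 bp or more. In MZsox19b it was wider at 173 and narrower at 42, with a median difference of 763 bp, and 183 of 215 (85.1%, 79.7 to 89.3) were 3000 bp or more. Low domains met a merged domain in 92 of 158 cases in MZspg and in 128 in MZsox19b, with median widths of 831 and 640 bp. Since the domains were selected on width in WT, a smaller width elsewhere is favoured by the rule and a larger one is not. Mutant widths were not measured at narrow domains, so that these counts have no background beside them. MZspg H3K4me3 peaks covered fewer bases than WT peaks in 212 of 215 tall broad and in 7053 of 7507 tall narrow domains. MZsox19b H3K4me3 peaks reached into the 1000 bp flanks of 92.1% of tall broad and 94.2% of tall narrow domains. The shifts were therefore not particular to broad domains.

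**Figure D5:**
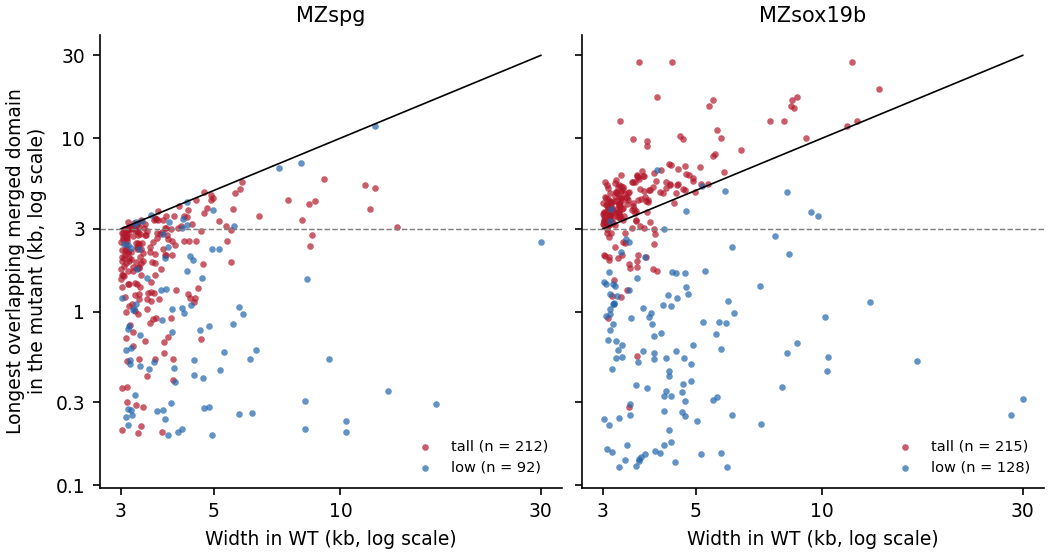
Width of the longest merged H3K4me3 domain of the mutant (y axis, kb, log scale) against the width of the WT domain it overlaps (x axis, kb, log scale), for MZspg (left) and MZsox19b (right), with tall domains in red and low ones in blue. The solid line marks equal width and the dashed line 3 kb. Of the tall points, 5 lie above the solid line in MZspg and 173 in MZsox19b.

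The same count taken from each mutant's own list gave 97 domains of 3000 bp or more in MZspg, 996 in MZsox19b and 373 in WT. Of the MZspg ones 60 were tall by their own height, and WT H3K4me3 peaks covered at least 50% of 59 of these. Of the MZsox19b ones 978 were tall, and WT peaks covered at least 50% of 799 (81.7%, 79.2 to 84.0) and MZspg peaks of 469 (48.0%, 44.8 to 51.1). Low domains numbered 37 of the 97 in MZspg, 18 of the 996 in MZsox19b and 158 of the 373 in WT. The same 10-fold limit was set on the fold enrichment of each list, which depends on depth and on the immunoprecipitation. The numbers of low domains are therefore not compared between lists. The low domains of the mutants were also covered less often elsewhere than the tall ones. WT H3K4me3 peaks covered at least 50% of 18 of the 37 low MZspg domains (48.6%), and MZsox19b peaks of 6 (16.2%). Of the 18 low MZsox19b domains, WT peaks covered at least 50% of 8 (44.4%) and MZspg peaks of 1.

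The 10 widest domains held both classes. The longest, chr1:53416568-53446529, was a low domain of 29962 bp made of 9 peaks with a highest enrichment of 3.92-fold. H3K4me3 peaks covered 8699 of its bases in MZspg, 960 in MZsox19b and 28166 in WT. H3K27ac peaks covered 2436 bases of it in MZspg, none in either MZsox19b replicate and 6487 in WT. The second longest, chr20:55173171-55201279, was a low domain of 28109 bp in which H3K4me3 peaks covered 0 bases in MZspg, 557 in MZsox19b and 26257 in WT. H3K27ac peaks covered 0 bases of it in MZspg, 9924 and 19987 in the MZsox19b replicates and 23227 in WT. Here the MZsox19b replicates were far apart. The third, chr4:39324915-39341752, was low as well and had no H3K27ac base in any mutant list, against 10846 in WT.

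The tall ones among the 10 widest were nearly filled in MZsox19b and WT. They were chr7:73842772-73856432 (13661 bp), chr7:73817462-73829564 (12103 bp), chr25:35043579-35055329 (11751 bp) and chr7:5903952-5915385 (11434 bp). H3K4me3 peaks covered 60.4 to 74.3% of their bases in MZspg, 92.1 to 100% in MZsox19b and 85.0 to 96.5% in WT. H3K27ac peaks covered 89.8 to 100% in MZspg, 89.2 to 100% across both MZsox19b replicates and 91.999 to 98.1% in WT. At chr25:35043579-35055329 the MZsox19b H3K4me3 peaks merged into a single domain of 27354 bp.

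The remaining 3 of the 10 widest were low. At chr8:34988350-35001308 (12959 bp) H3K4me3 peaks covered 1417 bases in MZspg, 1986 in MZsox19b and 10085 in WT. At chr4:53409380-53419699 (10320 bp) they covered 234 bases in MZspg, 1363 in MZsox19b and 7988 in WT. At chr4:77555328-77567442 (12115 bp) the order was another, with 10374 bases in MZspg, 0 in MZsox19b and 11458 in WT. H3K27ac peaks covered 10618 of the same bases in MZspg, 0 and 10400 in the MZsox19b replicates and 9418 in WT.

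Part of the broad domains lay in runs, and 258 of 373 had no other within 100 kb. Distances between narrow domains were not counted, so that the shares below have no background beside them. Of 373 domains, 115 (30.8%) had another within 100 kb, which was 37 of 215 tall and 78 of 158 low domains, and 82 had one within 10 kb. They formed 288 runs and lone domains, so that members of a run are not independent. The longest run, on chromosome 8 from 34434099 to 34630675, held 14 domains, all low. Their summed width was covered by H3K4me3 peaks to 10.6% in MZspg, 23.2% in MZsox19b and 79.8% in WT. H3K27ac peaks covered 29.1% of it in MZspg, 18.8 and 65.2% in the MZsox19b replicates and 59.6% in WT.

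A run of 10 low domains on chromosome 4, from 53409380 to 53523025, was almost bare in the mutants. H3K4me3 peaks covered 1.55% of its domain bases in MZspg, 12.2% in MZsox19b and 78.8% in WT. H3K27ac peaks covered 0.235% in MZspg, 0 and 0.309% in the MZsox19b replicates and 43.4% in WT.

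A run of 10 tall domains on chromosome 25, from 35043579 to 35155012, was marked in all genotypes. H3K4me3 peaks covered 59.7% of its domain bases in MZspg, 99.5% in MZsox19b and 89.1% in WT. H3K27ac peaks covered 97.2% in MZspg, 99.7 and 99.2% in the MZsox19b replicates and 97.3% in WT. A pair of tall runs on chromosome 7 behaved alike. From 6343889 to 6470901 there were 6 domains, with H3K4me3 over 56.2% of bases in MZspg, 98.7% in MZsox19b and 88.1% in WT. From 5903952 to 6066479 there were 5, with H3K4me3 over 66.0% in MZspg, 99.99% in MZsox19b and 91.3% in WT.

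Of the other runs of 5 domains, one on chromosome 25, from 36311057 to 36370277, was all tall, with H3K4me3 over 59.4% of domain bases in MZspg, 100% in MZsox19b and 84.9% in WT. One on chromosome 8, from 34927224 to 35001308, was all low, with H3K4me3 over 3.97% in MZspg, 13.7% in MZsox19b and 76.7% in WT. The last, on chromosome 25 from 26253437 to 26393247, mixed 2 tall and 3 low domains. H3K4me3 covered 12.3% of its domain bases in MZspg, 16.01% in MZsox19b and 61.7% in WT, and at most 36.3% of any of its domains in MZspg and 49.8% in MZsox19b. H3K27ac covered 15.8% of the bases in MZspg, 25.5 and 41.8% in the MZsox19b replicates and 40.8% in WT. Its tall domains were thus covered to under 50% in both mutant H3K4me3 lists.

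The chromosomes held unequal numbers of broad domains. Chromosome 4 had 56 (15.0% of the broad and 11.9% of the narrow domains), of which 41 were low. Chromosome 8 had 31 (8.3% of the broad and 4.2% of the narrow domains), of which 26 were low. Chromosome 7 had 33 (8.8 and 4.5%) with 24 tall ones, and chromosome 25 had 28 (7.5 and 2.9%) with 20 tall ones. Every chromosome had at least 4.

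Some broad domains had no H3K4me3 peak in a mutant. In MZspg 69 domains were without a covered base (18.5%, against 33.6% of narrow and 64.3% of all merged domains), of which 3 were tall. In MZsox19b 30 were (8.04%, against 16.4% of narrow and 44.7% of all merged domains), all of them low. The tall ones in MZspg were chosen for naming by this value, which is given as a description. At chr20:26417606-26422720, a domain of 5115 bp and 77.9-fold, H3K4me3 peaks covered 0 bases in MZspg, 5115 in MZsox19b and 4343 in WT. H3K27ac peaks there covered 0 bases in MZspg, 5115 and 4972 in the MZsox19b replicates and 4582 in WT. At chr4:841304-844905 (3602 bp, 84.1-fold) the H3K4me3 bases were 0 in MZspg, 3158 in MZsox19b and 3602 in WT, and the H3K27ac bases were 1137 in MZspg, 3602 and 3113 in the MZsox19b replicates and 3602 in WT. At chr4:66839890-66843439 (3550 bp, 15.4-fold) the H3K4me3 bases were 0 in MZspg, 3321 in MZsox19b and 3061 in WT. H3K27ac bases there were 558 in MZspg, 3349 and 3546 in the MZsox19b replicates and 1867 in WT.

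The next in line for MZspg were low domains just under the 10-fold limit. At chr9:9446844-9451012 H3K4me3 peaks covered 0 bases in MZspg, 1016 in MZsox19b and 3492 in WT. At chr11:15324844-15328472 they covered 0 bases in MZspg, 1828 in MZsox19b and 2611 in WT.

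Of the domains without H3K4me3 in MZsox19b, the highest was chr4:77555328-77567442, described above. It was followed by chr4:34626088-34630103 (4.77-fold), chr25:26351223-26355116 (4.60-fold), chr3:51079065-51083261 (4.54-fold) and chr14:13814109-13817614 (4.44-fold). MZspg H3K4me3 peaks covered 473 bases at chr4:34626088-34630103, where WT peaks covered 1939. The domains on chromosomes 3 and 14 were without a peak of either mark in every mutant list, and WT H3K27ac peaks covered 894 and 1000 bases of them.

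Domains that kept their H3K4me3 were asked for less H3K27ac than in WT. In MZspg 24 broad domains had at least 90% of their bases under H3K4me3 peaks, and in none of them did H3K27ac peaks cover fewer bases than in WT. The 3 lowest were chr3:27606417-27609594 with 3178 bases in MZspg and 3178 in WT, chr7:56184193-56187415 with 3090 and 3086, and chr2:27490569-27494185 with 3617 and 3603. For comparison, MZspg H3K27ac peaks covered fewer bases than WT ones in 207 of all 373 broad domains. That held for 69 of the 215 tall broad and for 1801 of 7507 tall narrow domains. The 24 were chosen by their MZspg H3K4me3 coverage, and the MZspg H3K27ac list was longer than that of WT. Their count is therefore a description. In MZsox19b 170 domains met the 90% limit. The largest deficit was at chr6:29216897-29219954, with 2046 and 2044 H3K27ac bases in the MZsox19b replicates and 2820 in WT, and H3K27ac peaks covered 1741 bases there in MZspg. At chr2:42070205-42073812 the bases were 2571 and 2765 in the MZsox19b replicates and 3031 in WT. At chr6:6973249-6976265 they were 1447 and 1497 in the replicates and 1757 in WT.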

How the data were processed

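Homogenized whole embryos were fixed and 7 ChIP and 7 input libraries were made, and the authors mapped the reads to danRer11 with Bowtie2 (version 2.3.2.2 in the submitters' processing notes) and called peaks with MACS2 for each ChIP library, with pooled inputs as background. Material of 2 ChIP experiments was pooled for H3K27ac in MZspg and likewise in WT, and every other library came from 1 experiment. Each line of a deposited list gives a peak in danRer11. The deposited fold enrichment is a ratio of ChIP signal over background at the summit. The p-value and q-value of a peak are deposited as −log10, the deposited score is 10 times the −log10 q, and the last column is the summit offset. The lists hold no read counts, and the read numbers of the libraries were not used here.

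WT H3K4me3 peaks on chromosomes 1 to 25, without chromosome 16 from 36 to 37 Mb, were merged when no more than 500 bp apart. Domains of 3000 bp or more were broad, and those of 500 to 1500 bp narrow. Bases of each domain under at least 1 peak of a list were counted with Python 3.11.15, numpy 2.4.6 and pandas 2.3.3, after the counting had been tested on simulated lists. Groups came from the sample titles. Domains named singly were the 10 widest, the 5 with the fewest H3K4me3 bases in each mutant (ties by WT height), and the 3 per mutant with at least 90% H3K4me3 coverage and the largest deficit of H3K27ac bases against WT. Chains of broad domains within 100 kb of each other, of which those of 5 or more domains are described, were counted as runs. The members, the named rules and the comparisons were chosen with earlier results of these data known, and the tall and low classes and the runs after the values had been seen. Alternatives were other gaps and widths, lists of equal covered length, a −log10 q of at least 5, the summit window, any covered base, chromosome 16 complete, chromosome 4 left out, either MZsox19b replicate left out and other narrow sets. Gene annotation and sequences were not used here, as the reference tables at hand were of another build.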

Additional observations from a re-analysis of the deposited data

Results flagged for a closer look

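Applied outside the sequences used above, the same rule gave WT H3K4me3 domains that no comparison included. On sequences other than chromosomes 1 to 25 there were 50 merged domains of 3000 bp or more, 33 on alternate loci and 17 on unplaced scaffolds, and 20 of them were tall. Of these 50, 13 had at least 50% of bases covered by H3K4me3 peaks in MZspg, 18 in MZsox19b and all in WT. The authors' notes say that alternate loci and scaffolds were excluded, but the deposited lists hold peaks on them. On chromosome 16 from 36 to 37 Mb, there were 16 such domains, of which 4 were tall and the longest measured 47396 bp. At least 50% of bases were covered in 1 of these 16 by each of the 5 mutant lists and in all 16 by both WT lists. A cause was not tested for either set.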

How the results depend on the processing

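No paired analysis was possible because only MZsox19b H3K27ac had replicate numbers and no result came from a test. The genes at the domains, with or without 500 bp around, were not run. In every alternative run on all 5 shares, MZsox19b was above MZspg for H3K4me3 and WT above MZspg for H3K27ac. The H3K4me3 gap between the mutants was 12.1 points in the main setting and 1.88 points with lists of equal covered length. WT was above the MZsox19b mean for H3K27ac except with a gap of 1000 bp, with domains of 2000 bp or more and in tall domains with the lists whole. The cause of the changes was not tested, beyond the change in domains that a setting makes. Shares covered to 50% follow in the order MZspg H3K4me3, MZsox19b H3K4me3, MZspg H3K27ac, MZsox19b H3K27ac mean and WT H3K27ac. A gap of 1000 bp (904 domains) gave 26.9, 39.4, 36.1, 56.7 and 55.6%. Merging only touching peaks (146 domains) gave 73.3, 87.0, 79.5, 84.2 and 94.5%. Domains of 2000 bp or more (1683) gave 60.2, 76.4, 66.8, 78.9 and 78.0%, and those of 5000 bp or more (63) gave 33.3, 42.9, 41.3, 50 and 81.0%. At least 1 base covered gave 81.5, 91.96, 87.1, 82.8 and 99.7%. The 500 bp at the summit gave 68.4, 73.2, 69.4, 71.8 and 87.9%. Tall domains alone gave 74.4, 96.3, 82.3, 94.4 and 89.8%. Domains with no other within 100 kb (258) gave 53.5, 70.2, 62.4, 74.0 and 86.0%. Lists of equal covered length gave 49.6% for MZsox19b H3K4me3, 49.6% for MZspg H3K27ac and 56.3% for the MZsox19b H3K27ac mean. A −log10 q of at least 5 gave 74.3% for WT H3K27ac. Without chromosome 4 the first 3 shares were 53.9, 64.7 and 62.8%. Leaving out either MZsox19b replicate put its H3K27ac share at 61.9 to 73.7% and its reduced count at 79 to 114.

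The broad minus narrow difference for WT H3K27ac was lowest, 9.38 points, with a gap of 1000 bp. That for MZspg H3K4me3 turned to 11.2 points with touching peaks, 5.30 with domains of 2000 bp or more, 7.65 at the summit, 15.1 with 1 base and 17.997 against all domains under 3000 bp. That for MZsox19b H3K4me3 turned to 3.42 with touching peaks, 9.96 at equal covered length, 8.39 with 1 base and 8.91 against all domains under 3000 bp. At equal covered length, 50 of 233 domains were reduced for H3K4me3 in MZspg and 38 in MZsox19b, and 131 of 369 for H3K27ac in MZsox19b. Without chromosome 4, 72 domains were reduced for H3K27ac in MZspg and 51 in MZsox19b. Among tall domains 46 and 3 were reduced for H3K4me3 and 24 and 3 for H3K27ac in MZspg and MZsox19b. Among domains with no other within 100 kb the counts were 110 and 71 for H3K4me3 and 73 and 48 for H3K27ac. The restrictions to tall and to solitary domains were chosen after seeing the data, as were those to chromosomes for the reduced counts. Peak lists limit all of these values: they hold no read counts, a domain ends where the caller stopped, and domains of a run are not independent.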
